A study of Mus musculus with 26 samples.

Results

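The genes described here encode the extracellular matrix of the embryonic mouse heart: collagens, laminins, fibrillins and fibulins, nidogens, matrix metalloproteinases and their tissue inhibitors, thrombospondins, lysyl oxidases, and 7 further matrix genes (Fn1, Sparc, Bgn, Tnc, Hspg2, Serpinh1 and Postn). The members are defined by gene symbol, and the families were picked with earlier results of these data known: a probe set was included if the array annotation gave it a single symbol of these families. The rule found 81 probe sets of 65 genes, 41 on the A array and 40 on the B array, among 13179 probe sets in all, of which 7561 had a single symbol (6137 genes). Total RNA of the entire heart was measured in 13 mouse embryos at embryonic day 12.5. In the mouse line, Nkx2.5 lacks its NK2-specific domain; Nkx2.5 is a transcription factor that cardiac muscle and its progenitors need. Null hearts were 3, 4, 8 and N3, heterozygous hearts were 5, 6, 12 and N2, and wild-type hearts were 1, 2, 7, 9 and N1. The labels give no strain, litter or sex, and they do not say how the mutant allele was made. Each heart was run on both arrays, 26 arrays in all.

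The matrix of the midgestation heart lies between cell types: a basement membrane of type IV collagen, laminin, nidogen and perlecan underlies the myocardium and the endocardium, and a looser interstitial matrix rich in fibrillar and type VI collagens fills the endocardial cushions, from which the valves form, and the space beneath the epicardium. Collagen chains are folded in the endoplasmic reticulum with the help of a dedicated chaperone, assembled outside the cell, crosslinked by lysyl oxidases and cut by metalloproteinases. Fibroblast-like cells of the cushions and the epicardium-derived mesenchyme are known as the main makers of fibrillar collagen, and cardiac muscle cells make little of it. A whole-heart sample mixes all of these cells, so fewer cells of a type and less RNA per cell cannot be told apart.

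The deposited values were read as intensities on a linear scale, from their range and negative values; the labels do not name the scale. The 16 arrays with no blank cell shared a trimmed mean (2 to 98 percentiles) of 1499.5 to 1500.0, so they had been scaled before deposit. The A arrays of hearts 1, 6 and N2 and the B arrays of hearts 3, 9 and N1 were mostly blank, with 62.5% to 81.3% of their cells empty, so many members had values in 7 to 12 hearts rather than 13. No probe set was named Nkx2-5 (0 of 13179), so the deletion was not checked against the targeted gene. Among the defining markers of heart cells, all 11 cardiomyocyte genes on the arrays passed the filter described next, as did 7 of 8 endothelial genes and 7 of 10 cushion mesenchyme and fibroblast genes. None of 12 lung, foregut and liver genes did (0 of 12), and 9 of those 12 were below the floor on every array. Precision is limited by the small number of arrays, and without litter labels the p-values cover only the spread between these hearts.

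A value was treated as signal above a floor of 2 times the noise of its table, 887 on array A and 1373 on array B. Probe sets with at least 4 arrays above the floor and at least 2 values in each genotype were tested: 46 of the 81 member probe sets, covering 36 genes, against 4494 of 13179 over all. Of the 46, 35 were above the floor on every array that had a value and 11 on some arrays only. Of the 35 members that were not tested, 31 were below the floor on every array and 4 were above it on 1 to 3 arrays (Col12a1, Col4a4, Lama3 and Timp2). The untested members included the cartilage collagens Col2a1, Col9a1 and Col9a3, the epithelial genes Lamb3 and Col17a1, and 6 of 9 metalloproteinases (Mmp3, Mmp7, Mmp9, Mmp10, Mmp12 and Mmp13). Tnc reached at most 1012 and Thbs2 at most 849, both below the floor of their array.

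The study's own comparison was between genotypes, and none of the matrix probe sets was called in it. Between null and wild-type hearts, 0 of 46 members had an adjusted p below 0.05 (limma, two-sided, Benjamini-Hochberg over the 4494 probe sets tested), against 0.0223% of all tested probe sets. The members' median log2 difference, null minus wild-type, was -0.09, with 17 of 46 above 0, beside a median of -0.01 and 48.6% above 0 over all probe sets. No member reached an unadjusted p below 0.05 (0 of 46, 108 of 4494 over all), and the smallest was 0.0629. The median of each family lay between -0.18 (fibrillins and fibulins) and 0.03 (crosslinking and chaperone genes). Groups that did not overlap were seen for 1 member, Loxl1, against 2.34% of all tested probe sets. Loxl1, a lysyl oxidase-like enzyme known for its part in elastic fibres, read 1844 and 1614 in wild-type hearts 2 and N1 and 1125, 1471 and 1261 in null hearts 3, 4 and N3. Both wild-type values were above all 3 null values, and the log2 difference of -0.43 (SE 0.27) had an adjusted p of 0.9999 (limma).

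Between heterozygous and wild-type hearts, 0 of 46 members were called, as were 0% of all tested probe sets, and 3 members had an unadjusted p below 0.05 (152 of 4494 over all). Their median log2 difference was 0.09, with 29 of 46 above 0. The smallest p belonged to Nid2, a nidogen that links laminin to type IV collagen. Nid2 read 1052, 1429 and 1261 in wild-type hearts, 2306, 1660, 2204 and 1768 in heterozygous hearts, and 1050, 1082 and 1648 in null hearts. All 4 heterozygous values were above all values of the other genotypes, and most of those others lay at or under the floor of 1373. The log2 difference to wild-type was 0.50 (SE 0.15, p = 0.0058, adjusted p = 0.981, limma). Col4a1, a chain of the basement membrane's type IV collagen, read 6243, 8377, 5989 and 6986 in wild-type hearts, 9048 and 11108 in heterozygous hearts, and 6437, 5528, 7835 and 7278 in null hearts. Its 2 heterozygous values, from hearts 5 and 12, were above all others. The log2 difference of heterozygous hearts was 0.55 (SE 0.19) to wild-type, with an adjusted p of 0.981, and that of null hearts was -0.58 (SE 0.19) to heterozygous hearts, with an adjusted p of 0.774 (limma).

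Groups did not overlap between heterozygous and wild-type hearts for 7 of the 46 members, against 5.94% of all tested probe sets. These were Nid2, Col4a1, Fn1 (on 1 of its 2 probe sets) and the 4 tested laminin chains Lama2, Lama4, Lamb1 and Lamc1. Of these, 6 were higher and Lama2 was lower in heterozygous hearts. Except for Nid2, all of them had only 2 heterozygous values, from hearts 5 and 12, because the A arrays of hearts 6 and N2 were mostly blank. The laminins differed between these groups by a log2 difference of -0.25 (Lama2) to 0.46 (Lamb1). Lamb1, a beta chain of the early laminins, read 1567 and 1650 in heterozygous hearts and 1478, 987, 949 and 1340 in wild-type hearts. None of these differences was called.

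Between null and heterozygous hearts, 0 of 46 members were called, as were 0% of all tested probe sets. The median log2 difference was -0.08, with 17 of 46 above 0. An unadjusted p below 0.05 was reached by 5 members (260 of 4494 over all), Col4a1, Nid2, Fbln1, Fn1 and Nid1, all lower in null hearts. Fbln1, a fibulin that binds fibronectin and laminin and is abundant in the cushions, read 4426, 5069, 7406 and 6465 in heterozygous hearts and 2737, 3083, 5351 and 3271 in null hearts. Null heart 8 lay within the heterozygous range and the other 3 null hearts lay below it. The log2 difference was -0.72 (SE 0.26, p = 0.0147, adjusted p = 0.774, limma). Groups did not overlap for 7 of 46 members (Col4a1, Col4a2, Nid2, Fn1, Col5a1, Lamb1 and Lama4), against 8.06% of all tested probe sets. All 7 probe sets were lower in null hearts, and except for Nid2 each had only 2 heterozygous values, from hearts 5 and 12. The second tested probe sets of Fn1 and Col5a1 overlapped, and that of Col5a1 was higher in null hearts (log2 difference 0.56). The 3 genotype comparisons share hearts and are not independent of each other.

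**Figure D1:**
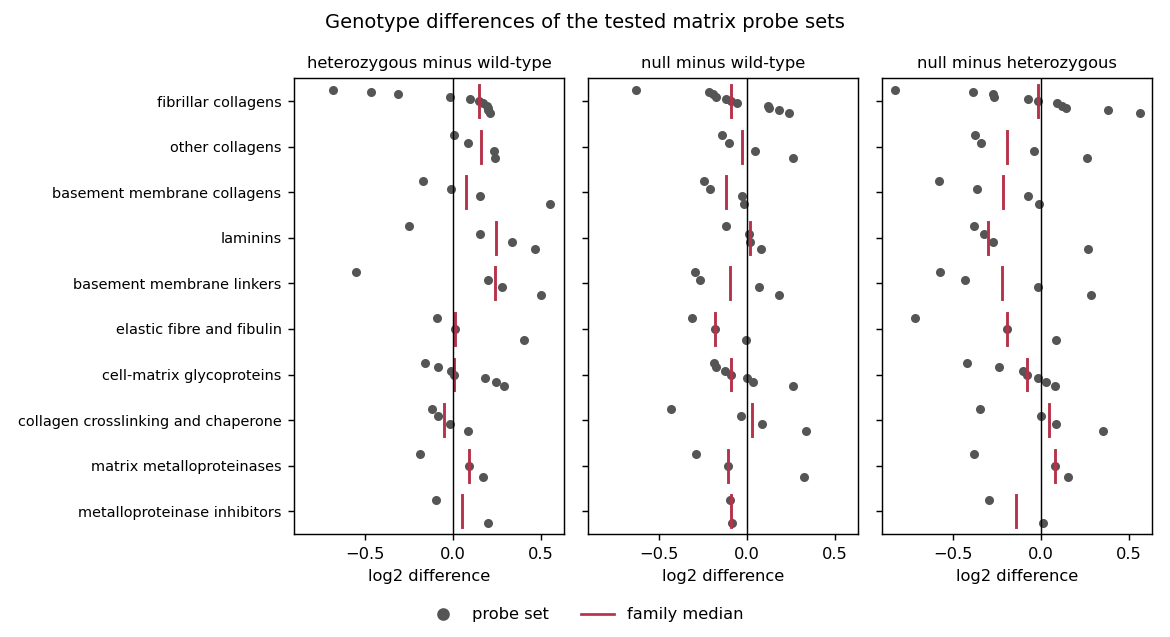
Log2 differences between genotypes for the 46 tested matrix probe sets, 1 point per probe set and 1 row per gene family, with the family median as a red bar. Points lie on both sides of 0 in most families in all 3 comparisons, and none was called.

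Several genes were measured by more than 1 probe set, which gives a second reading of the same genotype difference. Of the 8 genes with several tested probe sets, 7 had null minus wild-type or heterozygous minus wild-type differences of mixed sign among their own probe sets (Col1a1, Col1a2, Col3a1, Col5a1, Fn1, Hspg2 and Serpinh1), and only Sparc had the same sign in both. The widest disagreement was for Col5a1, a chain of type V collagen that starts fibril assembly. Its log2 difference between null and heterozygous hearts was -0.83 on 1 probe set and 0.56 on the other. For heterozygous against wild-type hearts the Hspg2 (perlecan) probe sets read -0.55 and 0.20. Col1a1 probe sets ranged from -0.47 to 0.20. Probe sequences were not used here, and probe sets of closely related collagens may share signal.

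The titles number the hearts 1 to 6, 7 to 12 and N1 to N3, and the labels do not say what the numbers stand for. Hearts 1 to 6 (wild-type 1 and 2, heterozygous 5 and 6, null 3 and 4) were compared with the 7 others, called hearts 7 to N here (wild-type 7, 9 and N1, heterozygous 12 and N2, null 8 and N3), with genotype in the model. This split, like the families, was chosen with earlier results of these data known, so the shares below are descriptive. In hearts 7 to N 9 of 46 members were called (19.6%), all 9 higher. Over all tested probe sets 7.14% were called, 3.87% higher and 3.27% lower. The 9 probe sets stand for 8 genes: Col6a1, Col6a2, Col26a1, Col1a2, Col5a1, Fbln1, Timp3 and Sparc, the last with both of its probe sets. Over the 46 members the median log2 difference was 0.24, with 36 above 0, beside a median of 0.01 and 52.1% above 0 over all 4494. An unadjusted p below 0.05 was reached by 18 of 46 members and 1109 of 4494 probe sets. Members whose heart-number groups did not overlap were Col6a2, Col6a1 and Bgn (3 of 46, 7.17% over all). Of the 46 members, 42 had a median above the floor in both heart-number groups.

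**Figure D2:**
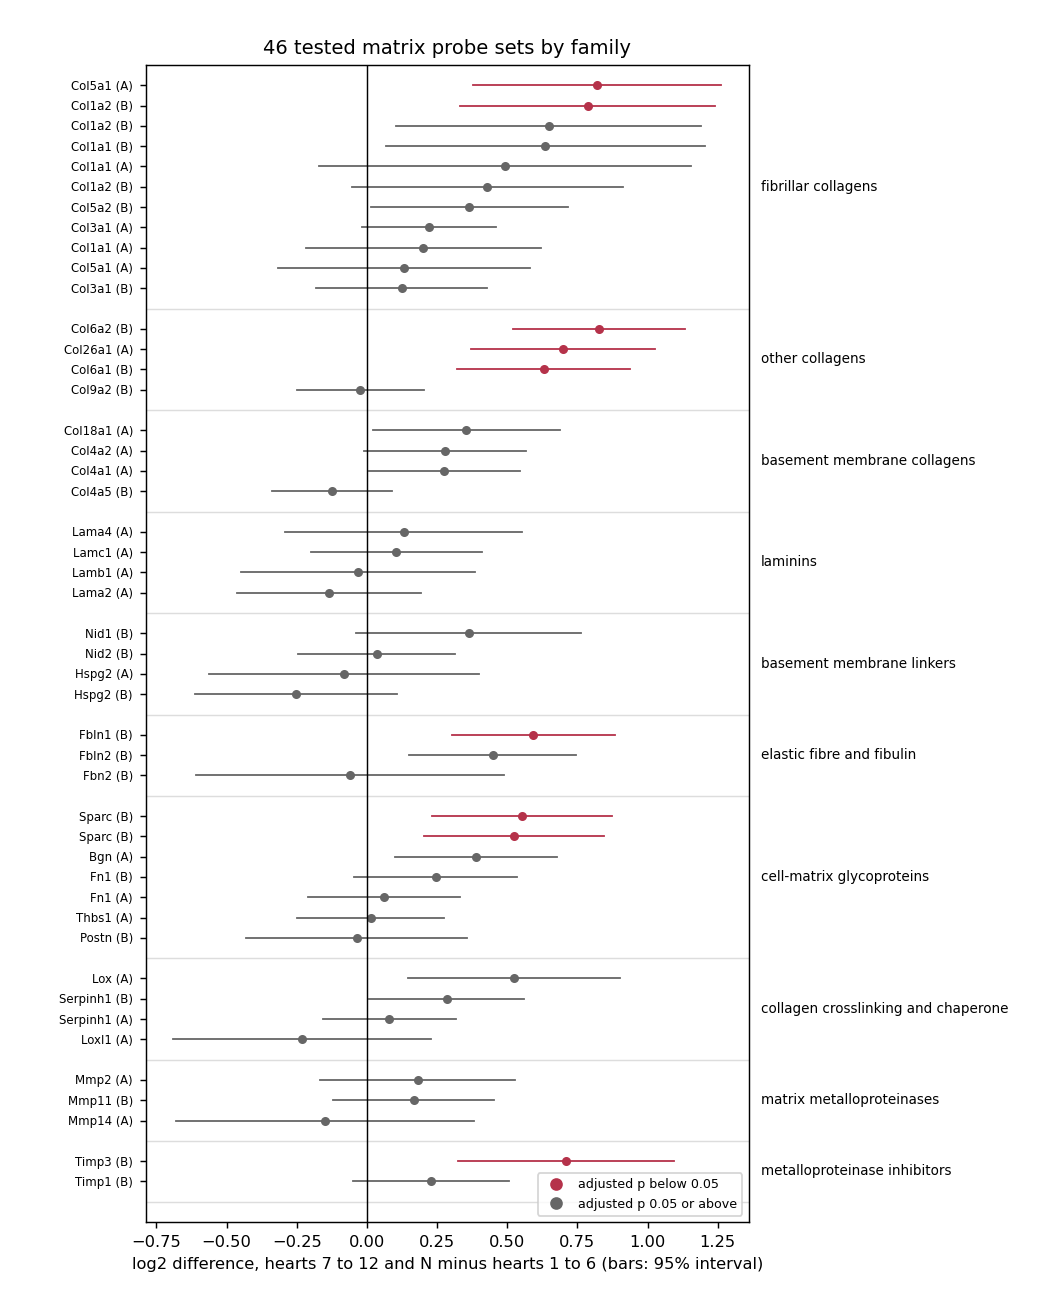
Log2 difference of hearts 7 to 12 and N minus hearts 1 to 6 for each of the 46 tested matrix probe sets, grouped by family, with 95% intervals from limma. The 9 called probe sets are red and all lie above 0, and 36 of the 46 points are above 0.

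The count of 9 calls depended on scaling and on single hearts. Under quantile normalization 1 of the 9 was called, Col26a1, beside 2.82% of all tested probe sets (135 of 4782). Of all calls there 58 were higher and 77 lower in hearts 7 to N, against 174 and 147 as deposited. The members' median did not move, at 0.24. When 1 heart at a time was left out, 2 members were called without null heart 4 and 2 without heart 2 of the wild type, 4 without null heart 8 and 4 without heart 1 or heart 7 of the wild type, 5 without null heart N3, and 6 to 10 without each of the others. Every such fit of the 9 probe sets gave a difference above 0. This was likely beforehand, because the 9 were chosen in these hearts and each fit kept all but 1 heart. Without the 6 mostly blank arrays 5 of the 9 were called (both Col6 chains, Col5a1 and both Sparc probe sets), and the median was 0.26. The share of all probe sets called in these fits on fewer hearts or arrays is not given here. Their counts do not show whether members lost calls more than other probe sets did. Col6a2 stayed called in all 13 fits that left out 1 heart. Col26a1 was lost without null heart 4 (adjusted p = 0.0522, limma). Col6a1 was lost without null heart 4 (0.0553) or heart 2 (0.0639), and Fbln1 without heart 1 (0.0542) or heart 2 (0.0524).

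Type VI collagen forms beaded filaments that tie cells to the interstitial matrix, and its chains Col6a1 and Col6a2 lie side by side on chromosome 10, with 0 protein-coding genes between them in RefSeq. Col6a2 had the smallest p of all members. Its intensity was 2300 to 4160 (median 3325) in hearts 1 to 6 and 4603 to 7321 (median 5599) in hearts 7 to N. Every heart of the second group was above every heart of the first, in each genotype. The log2 difference was 0.83 (SE 0.14, adjusted p = 0.0069, limma), a 1.77-fold level. Within genotypes it was 0.76 in wild-type, 0.63 in heterozygous and 1.10 in null hearts. Col6a1 read 1727 to 2401 (median 1979) in hearts 1 to 6 and 2512 to 4052 (median 3237) in hearts 7 to N, again with no overlap. Its log2 difference was 0.63 (SE 0.14, adjusted p = 0.022, limma), and it was 0.55, 0.61 and 0.75 within wild-type, heterozygous and null hearts.

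The bases before the starts of both genes are shown, with those of Col1a2 and Sparc, as examples from the 8 called genes. They are the 150 bases before the most upstream RefSeq start on GRCm38.p6, read 5′ to 3′ on the gene's strand, and capitals mark motif matches. Col6a1 is at chr10:76726045-76726194 and Col6a2 at chr10:76623631-76623780 (minus strand), Col1a2 at chr6:4505468-4505617 (plus strand) and Sparc at chr11:55420081-55420230 (minus strand).
Col6a1: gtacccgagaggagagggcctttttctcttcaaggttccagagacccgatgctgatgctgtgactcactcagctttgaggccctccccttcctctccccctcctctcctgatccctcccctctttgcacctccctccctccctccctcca
Col6a2: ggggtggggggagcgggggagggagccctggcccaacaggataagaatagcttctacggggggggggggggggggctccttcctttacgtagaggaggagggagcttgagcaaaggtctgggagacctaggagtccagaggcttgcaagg
Col1a2: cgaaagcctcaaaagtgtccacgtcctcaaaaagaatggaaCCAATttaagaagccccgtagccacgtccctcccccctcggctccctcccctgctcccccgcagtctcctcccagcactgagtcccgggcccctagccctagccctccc
Sparc: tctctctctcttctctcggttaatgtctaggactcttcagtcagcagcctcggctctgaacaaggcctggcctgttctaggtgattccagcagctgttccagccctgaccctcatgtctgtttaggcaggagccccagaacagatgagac
The letters searched on both strands were CCAAT (the CCAAT box), GGGCGG (the GC box), TATAA (the TATA box) and TNAAGTG (an element that NK2 factors bind). Of all 27025 genes in the promoter table, 25.3% held the CCAAT box in the same window, 29.0% the GC box, 14.7% the TATA box and 5.79% the NK2 element. The table held 45 of the 65 member genes and 7 of the 8 called ones, all but Col26a1. Of the 7, Col1a2 had the CCAAT box, Col5a1 and Timp3 the GC box, Timp3 also the TATA box, and none the NK2 element, with no overlap between matches. Of the 24 tested member genes in the table, 5 held the CCAAT box, 15 the GC box, 2 the TATA box and 0 the NK2 element. A match is a description of letters in a window and is not a measured binding site. A link between these letters and the heart-number groups was not tested.

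**Figure D3:**
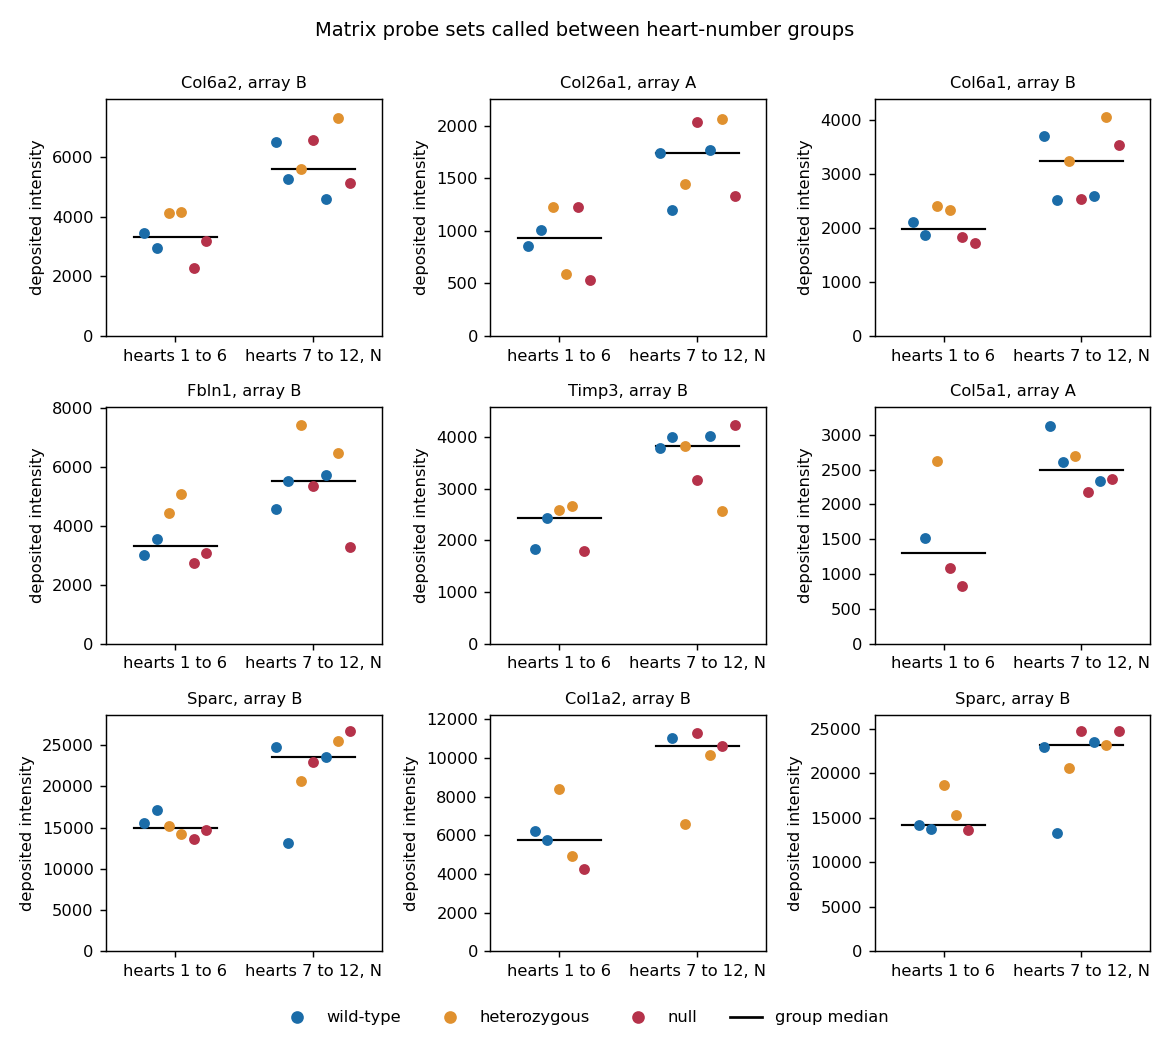
Deposited intensity (linear scale, from 0) of the 9 matrix probe sets called between heart-number groups, 1 point per heart coloured by genotype, with the median of each group as a line. The groups do not overlap for Col6a2 and Col6a1, and wild-type heart 9 is the low point of hearts 7 to N in both Sparc panels.

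Col26a1, a small collagen-like protein, was the third called collagen outside the fibrillar group. It read 532 to 1231 (median 936) in hearts 1 to 6, where 3 of 6 hearts were above the floor of 887, and 1198 to 2070 (median 1745) in hearts 7 to N, where all 7 were. Wild-type heart 9 at 1198 was the only heart of the second group under the highest of the first. The log2 difference was 0.70 (SE 0.16, adjusted p = 0.017, limma), and it was 0.71, 0.73 and 0.66 within wild-type, heterozygous and null hearts. With the floor at 3 times the noise it was 0.32 and no longer called. Col9a2, a cartilage collagen, gave a log2 difference of -0.02. The probe sets whose log2 values followed Col6a2 most closely over the 13 hearts, among 355 compared, were Foxc2 (Pearson r = 0.95), Eng (0.90) and Prrx2 (0.88). Those nearest to Col26a1 among 607 were Ubap2 (0.91), Hnrnpm (0.90) and Synpo (0.89). These correlations describe the same hearts and arrays, and all 6 genes were themselves called higher in hearts 7 to N.

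The fibrillar collagens, the rope-forming collagens of the interstitium, had 11 tested probe sets of 5 genes. All 11 were higher in hearts 7 to N with genotype in the model. Their median log2 difference was 0.43, with a range of 0.12 to 0.82, and 2 were called. All were also higher within wild-type and within null hearts. Within heterozygous hearts the signs were mixed, from -0.68 (Col5a1) to 0.35 (Col1a2). Col1a2, a chain of type I collagen, was called on 1 of its 3 probe sets. This probe set read 6217, 5766, 8388, 4931 and 4267 in hearts 1, 2, 5, 6 and 4 and 11002, 6598, 11302, 10122 and 10593 in hearts 7, 12, 8, N2 and N3. Heterozygous hearts overlapped, with heart 5 above heart 12, and the wild-type and null hearts did not. In the wild type only heart 7 stood for hearts 7 to N, because hearts 9 and N1 had no value. On the other Col1a2 probe sets heart 9 read 4762 and 2505, below heart 2 (6327 and 2674) and heart 1. Heart N1 read 9668 and 4249 there, above both. The log2 difference was 0.79 (SE 0.21, adjusted p = 0.044, limma). The other Col1a2 probe sets gave 0.65 (adjusted p = 0.131) and 0.43 (adjusted p = 0.252). The call was lost in 8 of the 10 fits that left out 1 heart with a value (null hearts 4, 8 and N3, wild-type hearts 1, 2 and 7, heterozygous hearts 6 and N2), with adjusted p from 0.0588 to 0.175.

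Col1a1, the partner chain of Col1a2, gave log2 differences of 0.63 (SE 0.27), 0.49 (SE 0.30) and 0.20 (SE 0.19) on its 3 probe sets, with adjusted p from 0.154 to 0.557 (limma). The B array probe set read 8690, 7878, 11751, 9274 and 6336 in hearts 1, 2, 5, 6 and 4, and 6970 to 20443 (median 16121) in hearts 7 to N. Wild-type heart 9 (6970) and heterozygous heart 12 (8258) lay within the range of hearts 1 to 6, and the other 5 of hearts 7 to N were above it. Col5a1 was called on 1 of 2 tested probe sets. This one read 1510, 2622, 1089 and 821 in hearts 2, 5, 3 and 4 and 2176 to 3123 (median 2488) in the 6 of hearts 7 to N with a value. Heterozygous heart 5 was the only one of the first group within the range of the second. This probe set differed by 0.82 (log2, SE 0.21, adjusted p = 0.034, limma), 0.82 within wild-type, 0.04 within heterozygous and 1.21 within null hearts. The call was lost in 6 of the 8 fits that left out 1 heart with a value and could be made (null hearts 3, 4, 8 and N3, wild-type hearts 2 and 7), with adjusted p from 0.0535 to 0.121. The second Col5a1 probe set gave 0.13 (adjusted p = 0.742). Col5a2, which pairs with Col5a1, gave 0.36 (adjusted p = 0.186), and the probe sets of Col3a1, the type III collagen of distensible tissues, gave 0.22 and 0.12.

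Sparc, a calcium-binding glycoprotein that binds collagen, was called on both probe sets. The first read 13657 to 17168 (median 14932) in hearts 1 to 6 and 13095 to 26659 (median 23605) in hearts 7 to N. Wild-type heart 9 (13095) was below all of hearts 1 to 6, and the other 6 of hearts 7 to N, from 20676 up, were above all of them. Hearts 7 to N were higher by 0.55 (log2, SE 0.15, adjusted p = 0.040, limma), and within genotypes it was 0.27 in wild-type, 0.64 in heterozygous and 0.81 in null hearts. The second probe set gave 0.52 (SE 0.15, adjusted p = 0.049, limma), with heart 9 again lowest at 13341. Both calls were near the threshold. The first was lost in 11 of 13 fits without 1 heart (all but those without wild-type heart 9 or heterozygous heart 12), with adjusted p from 0.0606 to 0.0905. The second was lost in 10 of the 12 that left out a heart with a value (all but those without wild-type heart 9 or heterozygous heart 5), with adjusted p from 0.0526 to 0.169.

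Other glycoproteins were not called. Bgn, the small proteoglycan biglycan, read 5186, 5762, 4495 and 4254 in hearts 2, 5, 3 and 4 and 5914 to 7517 in the 6 of hearts 7 to N with a value, with no overlap. Its log2 difference was 0.39 (SE 0.13, adjusted p = 0.094, limma). Fn1, fibronectin, gave 0.06 and 0.24 on its probe sets. Thbs1, a thrombospondin, gave 0.01, and Postn, the periostin of cushion mesenchyme, gave -0.04 (SE 0.18, 95% interval -0.44 to 0.36). Postn read 8788 to 12707 in hearts 1 to 6 and 6669 to 12756 in hearts 7 to N.

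Among fibulins and fibrillins, Fbln1 read 2737 to 5069 (median 3309) in hearts 1 to 6 and 3271 to 7406 (median 5508) in hearts 7 to N. Null heart N3 (3271) and wild-type heart 7 (4551) lay within the range of hearts 1 to 6, and the other 5 were above it. It was higher in hearts 7 to N by 0.59 (log2, SE 0.14, adjusted p = 0.022, limma), and 0.69, 0.55 and 0.53 within wild-type, heterozygous and null hearts. Fbln2, a fibulin of the cushions and vessel walls, gave 0.45 (SE 0.14, adjusted p = 0.066, limma), and Fbn2, a fibrillin of embryonic microfibrils, gave -0.06 (SE 0.25).

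Timp3, an inhibitor of metalloproteinases that stays bound to the matrix, read 1827, 2429, 2586, 2664 and 1793 in hearts 1, 2, 5, 6 and 4 and 2568 to 4248 (median 3836) in hearts 7 to N. Heterozygous heart N2 (2568) was the only one of the second group within the range of the first. Timp3 was higher in hearts 7 to N by 0.71 (log2, SE 0.18, adjusted p = 0.033, limma), 0.90 within wild-type, 0.26 within heterozygous and 1.04 within null hearts. The call was lost in 7 of the 12 fits that left out 1 heart with a value (wild-type hearts 1, 2, 7 and N1, heterozygous heart 12, null hearts 4 and 8), with adjusted p from 0.0511 to 0.118. Timp1, a secreted inhibitor, gave 0.23 (adjusted p = 0.289). None of the 3 tested metalloproteinases was called: Mmp2, a gelatinase, gave 0.18, Mmp11, a stromelysin, gave 0.17, and Mmp14, the membrane-bound enzyme that activates Mmp2, gave -0.15.

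Of the genes that act on collagen chains, Lox, the lysyl oxidase that crosslinks collagen and elastin, read 911.6, 667, 696 and 610 in hearts 2, 5, 3 and 4 and 845 to 1857 in the 6 of hearts 7 to N with a value. In the first group 1 of 4 hearts was above the floor, and in the second 5 of 6. Lox differed by 0.52 (log2, SE 0.18, adjusted p = 0.087, limma). Serpinh1, the collagen chaperone, gave 0.28 (adjusted p = 0.189) and 0.08 on its probe sets, and Loxl1 gave -0.23.

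The basement membrane families gave smaller values. Their 12 probe sets (type IV and XVIII collagens, laminins, nidogens and perlecan) had a median log2 difference of 0.07 and a range of -0.25 to 0.36. Of the 12, 7 were above 0 and 0 were called. The 34 other tested members had a median of 0.32, 29 above 0 and 9 called. Over all tested probe sets 7.14% were called, a share at which 0 of 12 is not unusual. The difference between these families was not tested. Most of the 12 were on array A and most of the 34 on array B. The members' median was 0.16 on array A, with 2 of 22 called, and 0.36 on array B, with 7 of 24 called. Family and array were not separated here. Col4a1 and Col4a2, the common chains of type IV collagen, are transcribed in opposite directions on chromosome 8 from RefSeq starts 21 bases apart, and both gave a log2 difference of 0.28 (adjusted p = 0.191 and 0.223). Col18a1, a vascular basement membrane collagen, gave 0.35 (adjusted p = 0.175) and Col4a5 gave -0.13. The 4 laminin chains lay between -0.13 (Lama2, of muscle basement membranes) and 0.13 (Lama4, of vessels), with 0 called. Nid1 gave 0.36 (adjusted p = 0.246), Nid2 gave 0.04, and both Hspg2 probe sets were below 0, at -0.08 and -0.25.

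Heart by heart, the members lay on different sides of their medians in the 2 groups, most clearly on array B. Each member's log2 value was set against its own median over hearts. On array B the median over members was -0.44 in null heart 3 (11 probe sets with a value), -0.42 in null heart 4, -0.25 and -0.20 in wild-type hearts 1 and 2, and -0.05 and 0.05 in heterozygous hearts 6 and 5. In hearts 7 to N it was -0.005 in wild-type heart 9 (16 probe sets) and 0.15 to 0.24 in the other 6. The same median over all tested probe sets of the array was between -0.02 and 0.03 in every heart. On array A hearts 1 to 6 lay between -0.26 (heart 1, with 2 probe sets) and 0.04, and hearts 7 to N between -0.13 (heart N2, with 3 probe sets) and 0.22, so the groups overlapped. Of the 9 calls, 7 were on array B, where 24 members were tested, and 2 on array A, where 22 were. These are 29.2% and 9.09% of the members tested, beside 8.82% of all tested probe sets on array B and 6.10% on array A.

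**Figure D4:**
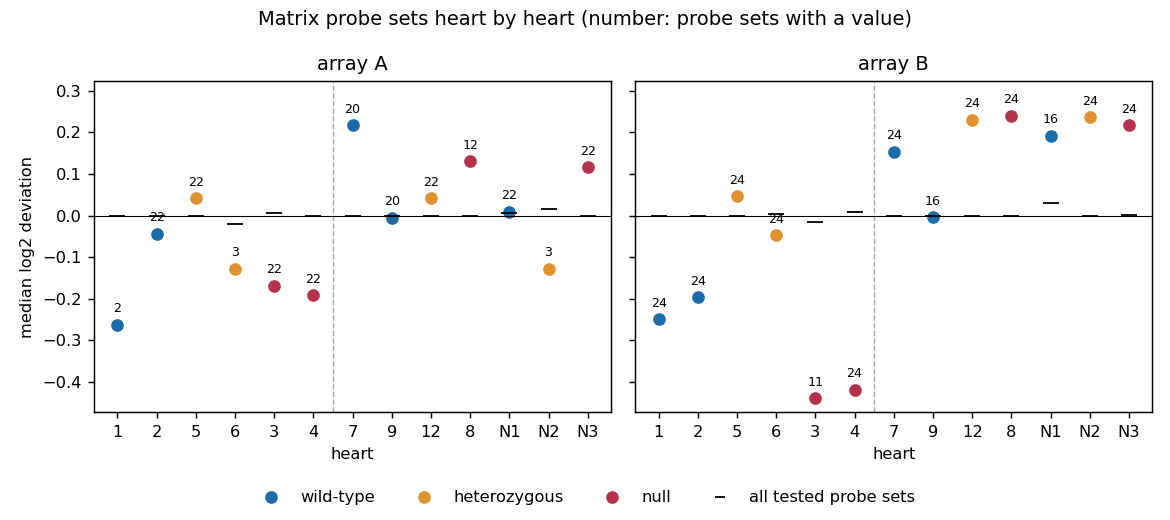
Median log2 deviation of the tested matrix probe sets from their own medians over hearts, for each heart on array A and array B, coloured by genotype; numbers give the probe sets with a value and black ticks the same median over all tested probe sets. The dashed line divides hearts 1 to 6 from the others, and null hearts 3 and 4 are lowest on array B.

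The median contrast between heart-number groups differed in size among genotypes, and the median genotype contrast differed between the groups. Of these differences, only that of null minus wild-type between the groups was tested, as the interaction given below. Those that involve heterozygous hearts were not tested. Hearts 7 to N against hearts 1 to 6 gave a median member difference of 0.26 in wild-type (32 of 46 above 0), 0.04 in heterozygous (26 of 46) and 0.37 in null hearts (40 of 46). Null minus wild-type had a median of -0.17 within hearts 1 to 6 (8 of 46 above 0) and 0.07 within hearts 7 to N (30 of 46). Null minus heterozygous had a median of -0.36 (5 of 46 above 0) and 0.04 (25 of 46). The interaction of genotype and heart-number group, null minus wild-type, had 0 of 46 members called (0% of all tested probe sets), 35 of 46 above 0 and 2 with an unadjusted p below 0.05 (137 of 4494 over all). Those were Hspg2 on array B, 0.73 (SE 0.33), and Col1a2 on another probe set than the one called above, 1.19 (SE 0.55), both with an adjusted p of 0.999 (limma). Each cell of this design held 1 to 3 hearts.

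Matrix and matrix-related genes outside the symbol rule were counted from lists. Of 11 tested genes for further matrix proteins (12 probe sets), 4 were called higher in hearts 7 to N and 1 lower. Over all tested probe sets 3.87% were called higher and 3.27% lower. The 4 were Mgp, an inhibitor of matrix calcification (log2 difference 1.54), Eln, elastin (1.23), Lum, a collagen-binding proteoglycan (1.03), and Gpc1, a membrane-anchored proteoglycan (0.63). The 1 lower was Vcan, the versican of the cardiac jelly, at -0.97 on 1 probe set and -0.10 (adjusted p = 0.743, limma) on the other. None of the 9 tested collagen processing enzymes was called, with a median of -0.07 and 3 of 9 above 0. Of 15 probe sets of 11 matrix receptor genes, 0 were called and 12 were above 0, with a median of 0.21. Of 6 probe sets for TGF-beta and BMP signalling, 1 was called higher, Eng, a co-receptor of endothelial cells (0.81). In null against wild-type hearts none of the probe sets of these 4 lists was called.

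Some markers of cell types were also called between the heart-number groups. Over all tested probe sets 7.14% were called, 3.87% higher and 3.27% lower in hearts 7 to N. Each marker list held few calls, and its count was not tested against that share. In hearts 7 to N, 3 of 14 cardiomyocyte probe sets were called lower (both Myl2 probe sets and Tnnc1) and 13 of 14 were below 0, with a median log2 difference of -0.35. On array B the summed intensity of the cardiomyocyte markers was 405153 to 721552 in hearts 1 to 6 and 193835 to 583937 in hearts 7 to N, over the hearts with all values. Of 9 cushion mesenchyme and fibroblast probe sets, 2 were called higher (Mgp and Lum) and 1 lower (1 of 2 for Vcan), all 3 also on the list of matrix proteins. Only 4 of the 9 were above 0, with a median log2 difference of -0.08. Summed over 5 of them on array A, they read 14639 to 21423 in hearts 1 to 6 and 14136 to 17370 in hearts 7 to N. On array B the sum held only Mgp and Dcn, which gave 0.14, and read 8180 to 11285 and 14186 to 23174. Of 7 endothelial probe sets 2 were called higher (Eng and Tie1) and 5 were above 0, with array B sums of 15786 to 22604 and 22255 to 34797. Of 3 epicardial probe sets 1 was called higher (Wt1, 0.75), and Krt19 (0.26) and Upk3b (0.08) were not called. Of 5 smooth muscle probe sets 1 was called higher (Eln) and 4 were below 0. Of 9 erythroid probe sets 1 was called higher (Alas2) and 6 were below 0, with array B sums of 160454 to 446456 and 79149 to 307017. The part of these markers in the matrix result was not tested. The log2 ratio of the 3′ to the 5′ Gapdh control, a sign of RNA quality, was -0.10 to 0.06 in hearts 1 to 6 and -0.22 to 0.08 in hearts 7 to N on array B, so the groups overlapped. That of the actin control overlapped too and spread more widely in hearts 7 to N, at 0.15 to 0.47 in hearts 1 to 6 and -0.27 to 1.03 in hearts 7 to N.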

How the data were processed

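The files hold intensity values on a linear scale, 1 per probe set and array, as deposited by the authors; the scale was inferred from the values, the arrays without blank cells share a trimmed mean, and the software is not given in the sources used here. Some values are negative, so a background had been subtracted, and blank cells were treated as missing. Noise was the root mean square of negative values (443 on array A, 686 on array B). Values below 2 times the noise were raised to it before log2 was taken. limma 3.58.1 in R 4.3.3 was fitted to each of the deposited tables with a variance trend, to all 13 hearts, by genotype, by heart-number group with genotype, or by their interaction. P-values were two-sided and adjusted by Benjamini-Hochberg over both tables, with a threshold of 0.05. Control probe sets (55 per array) were left out. Gene symbols came from the platform annotation, updated by gene ID through RefSeq GRCm38.p6, which matched 5551 of 5560 IDs on array A and 1993 of 2001 on array B. Symbols naming several genes were not members; 3 such probe sets list a matching gene. The fit was tested on simulated data.

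The members, the lists and the split by heart number were chosen with earlier results of these data known. Probe sets named were every tested member: those called, those of smallest p in each family, and those of genes with several probe sets. Likeness to Col6a2 and Col26a1 was measured by Pearson's r over hearts, on probe sets without blank cells. Alternatives changed the scaling, floor, filter, variance model, hearts used and covariates, and left out each heart in turn.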

Additional observations from a re-analysis of the deposited data

Results flagged for a closer look

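In 3 of 86 genotype groups of 4 or 5 hearts, 1 heart stood apart from the rest by Dixon's criterion, and chance flags about 1 in 20 groups. Col1a1 on an A array probe set read 5356.9 in wild-type heart 7, with the other 3 wild-type hearts between 3532 and 3724. Mmp14 read 3572.9 in wild-type heart 2, with the others between 2409 and 2454. Timp3 read 3835.6 in heterozygous heart 12, with the others between 2568 and 2664; without this heart the log2 difference of Timp3 between heart-number groups was 0.69 with an adjusted p of 0.0524 (limma).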

How the results depend on the processing

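No member was called in a genotype comparison under any alternative run. Against 9 members called between heart-number groups, 1 was called under quantile normalization, beside 2.82% of all tested probe sets. Without the filter on low values 0 were called (6 calls over all probe sets). Without the mostly blank arrays 5 were called, and these and the 1 under quantile normalization were among the 9. Without the 3 N hearts 5 were called, 4 of the 9 and Fbln2. For the N hearts alone against hearts 1 to 6, 1 was called, Lox, and 0 of the 9. For hearts 7 to 12 alone, 6 were called, 5 of the 9 and Fbln2. The other alternatives on all hearts gave 6 to 10 calls, all among the 9 except Lox with array weights. Fewer hearts or more probe sets entered some of these fits, and the cause of the changed counts was not tested. Except without the filter and under quantile normalization, the share of all probe sets called under each alternative is not given here. The counts thus do not show whether members lost calls more than other probe sets did. Leaving out 1 heart at a time gave 2 to 10 calls and a members' median log2 difference of 0.22 to 0.42. That median was highest without heterozygous heart 5, where only 26 members could be fitted. The median was 0 without the filter, where 81 members entered, many at the floor on every array. Of the 4566 values of single probe sets under alternatives, none changed direction while called, 96 lost a call and 7 gained one (Fbln2, Lox and another Col1a2 probe set). No paired analysis was possible because no replicate number occurs in more than 1 genotype. Blank cells left 2 heterozygous hearts for most members of array A, and 11 of 46 members were at or under the floor on some arrays, where differences are understated.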
